A study of Homo sapiens and Mus musculus with 24 samples.

Results

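Tissue factor (F3), tissue factor pathway inhibitor (TFPI), coagulation factors V (F5) and X (F10), the protease-activated receptors F2R and F2RL1, the plasminogen activators PLAU (urokinase) and PLAT (tissue-type), and the urokinase receptor PLAUR were followed in human Caco-2 cells and in mouse colonic epithelium. These 9 genes form a list chosen by hand with the differences in level between these same groups known, so that their levels and differences are given as a description and no p-value is attached to them as support. All 9 were found by symbol among 58051 gene identifiers in the human count tables and among 29307 in the mouse tables. Caco-2 cells derive from a human colorectal carcinoma and take on features of enterocytes. WT cells were compared with ΔDNMT3A, 1 clone in which both isoforms of the DNA methyltransferase DNMT3A were targeted by CRISPR-Cas9, and with DNMT3A1 and DNMT3A2, clones of ΔDNMT3A cells that received a TY1-tagged long or short isoform by piggyBac transposition under a CMV promoter and were grown out under puromycin. Both isoform lines therefore share the deletion of ΔDNMT3A, and each line was 1 clone, so that clone and genotype cannot be told apart. The mice, at steady state, carried loxP sites around exons of Dnmt3a on a C57BL/6J background, without (Dnmt3a fl/fl) or with (Dnmt3a ΔIEC) Villin-Cre, a driver active in intestinal epithelium that came from a mixed C57BL/6JxSJL/J line. The labels do not state an age. The results of the study name 1 age for both mouse groups, and its methods give a range of ages and both sexes for baseline mice. Analysed were 4 libraries each of WT, ΔDNMT3A and DNMT3A2, 3 of DNMT3A1, and 4 of each mouse group. Nothing states that the Caco-2 replicates were separate cultures, so their spread may be technical.

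Tissue factor is the membrane protein that starts the extrinsic pathway of coagulation. It binds factor VII, and the complex activates factor X, which together with factor V turns prothrombin into thrombin. TFPI blocks the complex of tissue factor, factor VII and factor X. Thrombin cleaves and thereby switches on the G protein-coupled receptor encoded by F2R (PAR1), while trypsin-like proteases and the tissue factor complex act on the receptor encoded by F2RL1 (PAR2), which sits on both faces of enterocytes. Urokinase, held at the surface by its receptor PLAUR, and tissue-type plasminogen activator turn plasminogen into plasmin, the protease that dissolves fibrin.

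Total counts were 22104408 to 42161299 per library in the 15 Caco-2 libraries and 16943626 to 24921248 in the 8 mouse libraries. Levels are given as CPM, the counts of a gene scaled to 1000000 per library after normalisation, and a gene is termed called when its p from the quasi-likelihood test of edgeR, Benjamini-Hochberg adjusted over all genes tested, was under 0.05. DNMT3A had 64.6 ± 2.27 CPM in WT (SD, n = 4), 20.7 ± 1.22 CPM in ΔDNMT3A (SD, n = 4) and 38 ± 1.23 CPM in DNMT3A1 (SD, n = 3). Those labelled DNMT3A2 had 21.9 ± 1.40 CPM (SD, n = 4), from 20.2 to 23.5 CPM, a range that overlapped that of ΔDNMT3A (19.3 to 22.3 CPM), so the gene counts do not show the reintroduced isoform and these libraries are named by their label throughout. The study reports that both isoform proteins were found again by immunoblot and lay in nuclei by immunofluorescence, which are not analysed here. Mouse Dnmt3a had 93.9 ± 7.70 CPM (SD, n = 4) in fl/fl and 46.1 ± 3.30 CPM (SD, n = 4) in ΔIEC mice. The 10 markers of intestinal epithelium summed to 8046 to 12595 CPM per Caco-2 library and to 13056 to 18688 CPM per mouse library. Within this list, CDX1 had 0 counts in ΔDNMT3A. The 10 markers of T and B cells summed to at most 2.56 and 7.23 CPM. Those of fibroblasts and smooth muscle summed to 160 to 212 CPM per Caco-2 library and 13.4 to 21.3 CPM per mouse library. Myeloid and endothelial markers reached 33.9 and 26.9 CPM in the Caco-2 libraries, which come from a cell line. Such sums therefore do not measure the share of other cell types.

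The stretches around the RefSeq start sites of F3, F2RL1 and TFPI (GRCh38.p14, 250 bases before to 50 after the start) are shown because they differ widely in CG dinucleotides, the bases that DNMT3A methylates, while all 3 genes had higher levels in ΔDNMT3A. Capitals mark CG, and each sequence reads 5′ to 3′ on the strand of the gene.
F3: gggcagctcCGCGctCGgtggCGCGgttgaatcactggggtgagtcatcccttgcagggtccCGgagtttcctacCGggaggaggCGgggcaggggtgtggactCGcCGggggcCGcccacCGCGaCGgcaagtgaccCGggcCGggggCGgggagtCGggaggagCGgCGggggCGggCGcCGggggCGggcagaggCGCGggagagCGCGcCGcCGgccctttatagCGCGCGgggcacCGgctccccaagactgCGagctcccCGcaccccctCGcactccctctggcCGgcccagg
F2RL1: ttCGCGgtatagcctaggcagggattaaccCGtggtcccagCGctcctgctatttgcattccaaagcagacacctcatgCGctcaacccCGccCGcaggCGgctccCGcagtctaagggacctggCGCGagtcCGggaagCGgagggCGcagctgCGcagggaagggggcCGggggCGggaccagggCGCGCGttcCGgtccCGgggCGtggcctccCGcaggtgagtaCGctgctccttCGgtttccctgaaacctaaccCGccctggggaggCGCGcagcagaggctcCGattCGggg
TFPI: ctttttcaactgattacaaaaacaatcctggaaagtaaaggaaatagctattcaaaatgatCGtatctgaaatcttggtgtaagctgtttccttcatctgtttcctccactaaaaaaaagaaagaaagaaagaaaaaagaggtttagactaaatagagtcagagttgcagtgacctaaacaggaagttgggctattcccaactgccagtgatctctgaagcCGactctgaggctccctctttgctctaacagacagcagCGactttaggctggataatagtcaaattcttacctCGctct
The stretch of F3 (minus strand, chr1:94541710-94542009) held 38 CG, more than 90.1% of the 35116 RefSeq promoters of the same length, whose median was 14. That of F2RL1 (plus strand, chr5:76818780-76819079) held 31 CG, more than 79.3% of promoters. That of TFPI (minus strand, chr2:187554386-187554685) held 4 CG, more than 24.5% of promoters. This TFPI start lies 11.3 kb inside the outer end of the gene model that was counted, and gene counts do not show which start was used. Among the other members with a table entry, PLAUR had 18 CG, F10 had 10, F5 had 7 and PLAU had 5. The AP-1 motif TGANTCA, which reads the same on both strands, occurred 2 times in the stretch of F3 and 1 time in that of PLAUR, and in 7.71% of all promoters. The Sp1 motif GGGCGG, searched on both strands and itself holding a CG, occurred 4 times in F3, 3 times in F2RL1 and 1 time in F10, and in 45% of all promoters. These are letters in a window and not sites of binding, and methylation was not analysed here.

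Tissue factor rose and came down again across the Caco-2 lines, whereas its inhibitor rose and did not come down. In ΔDNMT3A against WT, all 8 members that passed the filter on low counts were called, 5 higher (F3, TFPI, F2R, F2RL1 and PLAUR) and 3 lower (F10, F5 and PLAU). Of all 16654 genes tested in that comparison 62.2% were called, 31.2% higher and 31.0% lower, and since the members were picked with these differences known nothing follows from their count. The median size of their change was 0.99 on the log2 scale beside 0.24 over all genes tested. PLAT did not pass the filter, with 4 to 15 counts per library in these 2 lines.

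**Figure D1:**
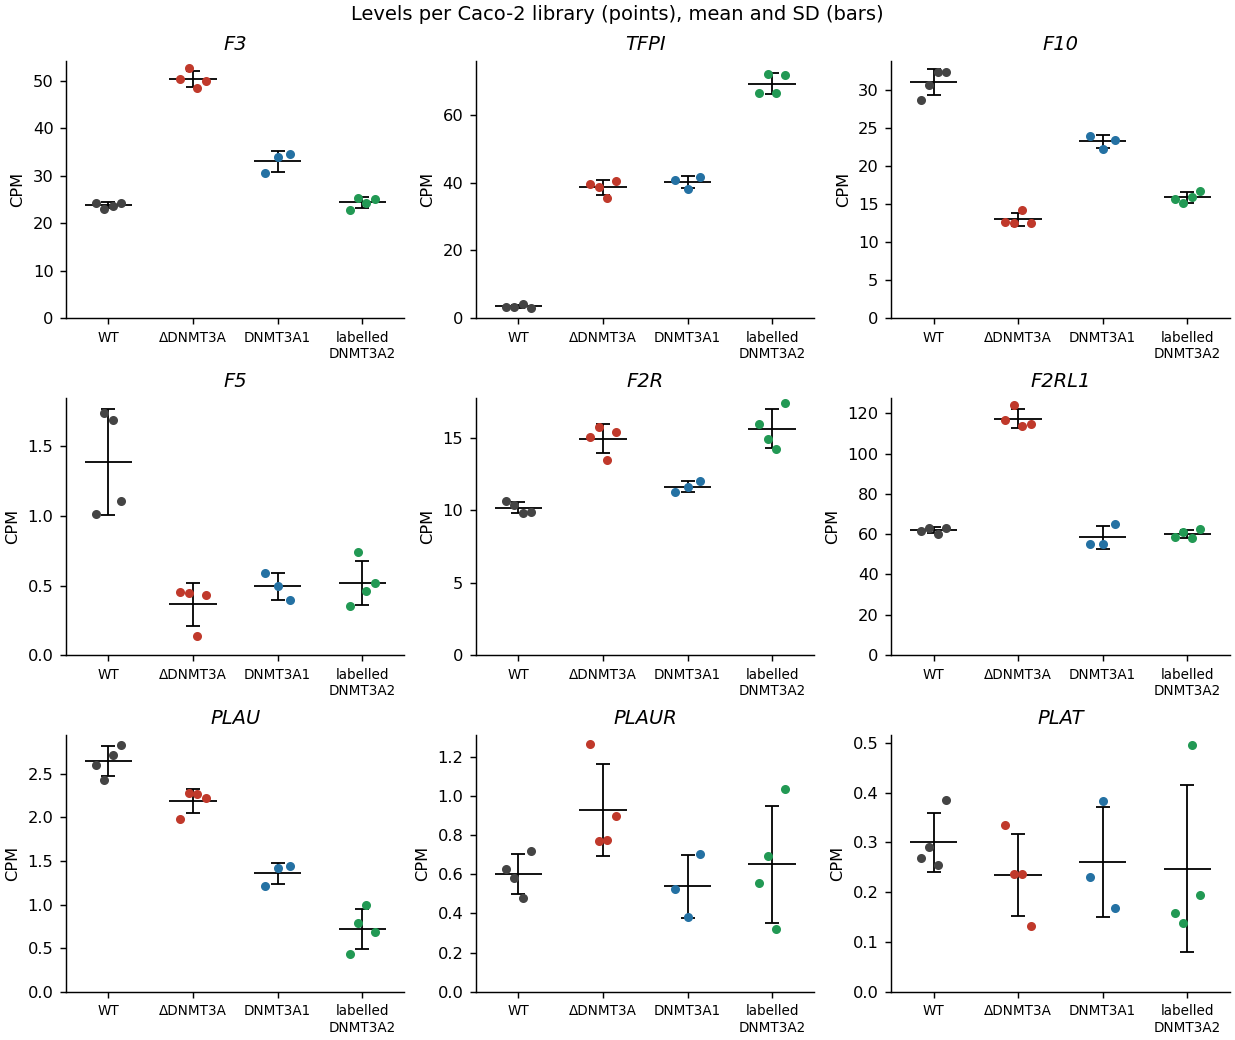
Level in CPM (vertical axes, each from 0) of the 9 genes in the 4 Caco-2 lines, with 1 point per library and the mean and SD as bars. F3 and F2RL1 stand highest in ΔDNMT3A, TFPI rises from about 3.52 CPM in WT to 69.2 CPM in the libraries labelled DNMT3A2, and PLAUR and PLAT lie near the bottom of the measurable range.

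F3 (ENSG00000117525, minus strand of chromosome 1 of GRCh38, 94529225 to 94541800) had 24.2, 22.9, 23.7 and 24.3 CPM in the WT libraries and 50.4, 52.7, 48.5 and 50.0 CPM in ΔDNMT3A. The 3 DNMT3A1 libraries had 30.5, 34.0 and 34.7 CPM, and those labelled DNMT3A2 had 22.8, 25.3, 24.4 and 25.2 CPM. The ΔDNMT3A libraries lay above all others and the DNMT3A1 libraries lay between, while WT and the libraries labelled DNMT3A2 overlapped. On the log2 scale F3 differed by 1.07 (SE 0.0405) between ΔDNMT3A and WT, a fold of 2.10, and fell by 0.61 (SE 0.0516) in DNMT3A1 and by 1.05 (SE 0.0424) in the libraries labelled DNMT3A2 against ΔDNMT3A. Against WT, DNMT3A1 remained higher by 0.47 (SE 0.0515), and the libraries labelled DNMT3A2 differed by 0.02 (SE 0.0478), which was not called.

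TFPI (ENSG00000003436, minus strand of chromosome 2, 187464230 to 187565760) had 3.44, 3.37, 4.12 and 3.14 CPM in WT. It had 39.5, 38.8, 35.4 and 40.5 CPM in ΔDNMT3A, 40.6, 38.2 and 41.6 CPM in DNMT3A1, and 66.3, 72.0, 66.5 and 71.8 CPM in the libraries labelled DNMT3A2. Every library of the 3 edited lines lay far above WT, ΔDNMT3A and DNMT3A1 overlapped, and the libraries labelled DNMT3A2 lay above both. TFPI was higher by 3.45 on the log2 scale (SE 0.0806) in ΔDNMT3A than in WT, a fold of 10.9, and by 4.29 (SE 0.0735) in the libraries labelled DNMT3A2 than in WT, a fold of 19.5. Between DNMT3A1 and ΔDNMT3A the difference was 0.06 (SE 0.0522), not called, and between the libraries labelled DNMT3A2 and ΔDNMT3A it was 0.84 (SE 0.0413). An antisense gene, CALCRL-AS1, overlaps exons of TFPI on the other strand with 0 to 24 counts per library, and the human counts were made by strand.

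The balance of tissue factor to its inhibitor at the RNA level differed between all 4 lines, through both genes or through 1 of them. Per kilobase of exon, F3 exceeded TFPI 27.8 ± 3.37 times (SD, n = 4) in WT, 5.34 ± 0.264 times (SD, n = 4) in ΔDNMT3A, 3.36 ± 0.286 times (SD, n = 3) in DNMT3A1 and 1.44 ± 0.0382 times (SD, n = 4) in the libraries labelled DNMT3A2. The ranges of the 4 lines did not overlap. No share of gene pairs with such separate ratios was computed. Between any 2 of these lines 60.7% to 68.7% of all genes tested were called, so nothing particular to this pair follows from the separation. F3 returned toward its WT level in both isoform lines while this ratio moved further from that of WT. The exon length of TFPI includes every annotated transcript (11.7 kb), so the size of the ratio depends on the gene model, and its order between lines does not.

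**Figure D2:**
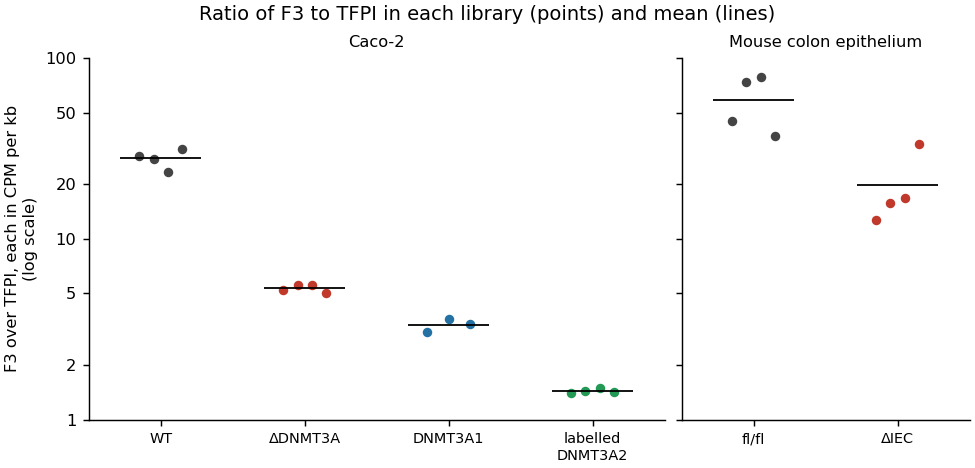
Ratio of F3 to TFPI, each in CPM per kilobase of exon, on a log axis in each Caco-2 library (left) and each mouse library (right), with lines at the group means. The Caco-2 ratio lies between 23.4 and 31.6 in WT and between 1.40 and 1.49 in the libraries labelled DNMT3A2, and in mice it lies between 37.0 and 78.2 in fl/fl and between 12.8 and 33.5 in ΔIEC.

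Factor X moved the other way. F10 (ENSG00000126218, plus strand of chromosome 13, 113122814 to 113149529) had 28.7, 30.6, 32.3 and 32.3 CPM in WT and 12.7, 12.5, 14.3 and 12.6 CPM in ΔDNMT3A. It had 23.9, 22.2 and 23.4 CPM in DNMT3A1 and 15.6, 15.1, 15.9 and 16.8 CPM in the libraries labelled DNMT3A2. The 4 lines did not overlap and stood in the order WT, DNMT3A1, labelled DNMT3A2 and ΔDNMT3A. The share of all genes whose 4 lines do not overlap was not computed. F10 fell by 1.27 on the log2 scale (SE 0.0564) in ΔDNMT3A against WT, and rose by 0.84 (SE 0.058) in DNMT3A1 and by 0.29 (SE 0.0608) in the libraries labelled DNMT3A2 against ΔDNMT3A.

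F7, which encodes factor VII, the partner of tissue factor, starts next to F10 on the same strand, with 2.13 kb between the gene models. It had 49.4 ± 1.90 CPM (SD, n = 4) in WT, 22.0 ± 1.83 CPM (SD, n = 4) in ΔDNMT3A, 34.1 ± 1.82 CPM in DNMT3A1 (SD, n = 3) and 22.5 ± 1.21 CPM (SD, n = 4) in the libraries labelled DNMT3A2. The change of F7 in ΔDNMT3A against WT was -1.18 (SE 0.05, adjusted p = 5.56e-16 from edgeR). F7 and the other list genes named below come from lists written with earlier results known and were named for large called changes. Their adjusted p values are therefore a description and no support. Per kilobase of exon, the ratio of F7 to F10 stayed between 0.817 and 1.13 in all 15 libraries. F7 and F10 thus stood at nearly equal levels per length in each line. In the libraries labelled DNMT3A2 against ΔDNMT3A the difference of F7 was 0.03 (SE 0.0607), not called, where that of F10 was called.

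Factor V was scarce. F5 had 34 to 53 counts per library (1.39 ± 0.380 CPM, SD, n = 4) in WT, 4 to 19 counts (0.366 ± 0.154 CPM, SD, n = 4) in ΔDNMT3A, 13 to 18 in DNMT3A1 and 9 to 16 in the libraries labelled DNMT3A2. WT lay above the 3 edited lines, which overlapped each other. F5 fell by 1.87 on the log2 scale (SE 0.293) in ΔDNMT3A against WT, and its differences of 0.38 (SE 0.346) in DNMT3A1 and 0.43 (SE 0.334) in the libraries labelled DNMT3A2 against ΔDNMT3A were not called. Against WT, F5 was called lower in DNMT3A1, by 1.48 (SE 0.286), and in the libraries labelled DNMT3A2, by 1.43 (SE 0.269). At 4 to 19 counts per library a partial return of moderate size was not detectable at this depth.

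The receptor PAR2, like tissue factor, was highest in ΔDNMT3A. F2RL1 (ENSG00000164251, plus strand of chromosome 5, 76818933 to 76835315) had 61.8, 62.9, 60.0 and 63.2 CPM in WT and 117, 124, 114 and 115 CPM in ΔDNMT3A. It had 55.3, 55.1 and 65.2 CPM in DNMT3A1 and 58.5, 61.2, 58.2 and 62.5 CPM in the libraries labelled DNMT3A2. ΔDNMT3A stood apart, and the other 3 lines overlapped. F2RL1 differed on the log2 scale by 0.91 (SE 0.0329) in ΔDNMT3A against WT, by -1.0 (SE 0.0496) in DNMT3A1 against ΔDNMT3A and by -0.97 (SE 0.0332) in the libraries labelled DNMT3A2 against ΔDNMT3A. Neither isoform line was called against WT, with differences of -0.08 (SE 0.0494) and -0.06 (SE 0.0324). These 2 depended on single libraries: without replicate 4 of DNMT3A1 the first became -0.17, and without replicate 3 of WT or replicate 4 of the DNMT3A2 label the second became -0.08, each then called.

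PAR1, encoded 83.2 kb away on the same strand, did not keep step with PAR2. F2R (ENSG00000181104, chromosome 5, 76716043 to 76735781) had 10.6, 10.4, 9.83 and 9.91 CPM in WT and 15.1, 15.8, 13.5 and 15.5 CPM in ΔDNMT3A. It had 11.3, 11.6 and 12 CPM in DNMT3A1 and 16, 15, 14.3 and 17.4 CPM in the libraries labelled DNMT3A2. F2R was thus low in WT and DNMT3A1 and high in the other 2 lines, which overlapped. It rose by 0.55 on the log2 scale (SE 0.0652) in ΔDNMT3A against WT and fell by 0.36 (SE 0.0659) in DNMT3A1, and differed by 0.06 (SE 0.0676), not called, in the libraries labelled DNMT3A2 against ΔDNMT3A. Per kilobase of exon F2RL1 exceeded F2R 10.8 ± 0.586 times (SD, n = 4) in ΔDNMT3A and 5.30 ± 0.371 times (SD, n = 4) in the libraries labelled DNMT3A2. The third receptor gene of the cluster, F2RL2 (PAR3), 92.6 kb from F2R, had 1 read in 1 ΔDNMT3A library and 0 in the other 14, and with a floor of 3 counts per library it was not detectable at this depth.

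Urokinase went down stepwise from line to line. PLAU had 2.60, 2.43, 2.71 and 2.83 CPM in WT, 1.98, 2.28, 2.27 and 2.23 CPM in ΔDNMT3A, 1.22, 1.42 and 1.44 CPM in DNMT3A1 and 0.435, 0.784, 0.991 and 0.681 CPM in the libraries labelled DNMT3A2. The 4 lines did not overlap, at 11 to 110 counts per library, and the share of all genes with such a separation was not computed. PLAU fell by 0.68 (SE 0.165) in DNMT3A1 and by 1.59 (SE 0.204) in the libraries labelled DNMT3A2 against ΔDNMT3A, so neither isoform line stood nearer to WT than ΔDNMT3A did. Its smaller change of -0.30 (SE 0.116) in ΔDNMT3A against WT was called only in part of the fits tried: DESeq2, no filter on low counts, 1 fit over all 4 lines, the replicate block and leaving out replicate 3 or 4 of WT or replicate 1 of ΔDNMT3A each ended the call.

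PLAUR, the urokinase receptor, had 15 to 28 counts per library in WT (0.602 ± 0.101 CPM, SD, n = 4) and 23 to 53 in ΔDNMT3A (0.928 ± 0.233 CPM, SD, n = 4). The call of its difference of 0.62 (SE 0.234) was lost with DESeq2, without replicate 3 of WT and without replicate 1 of ΔDNMT3A, where it was 0.41. The change of -0.77 (SE 0.285) in DNMT3A1 against ΔDNMT3A was also lost with DESeq2, without replicate 1 of ΔDNMT3A, where it was -0.56, and without replicate 1 or 2 of DNMT3A1. PLAT had 3 to 15 counts per library in all 15 libraries and was tested in no Caco-2 comparison. Caco-2 cells thus held low levels of RNA of both parts of the urokinase pair. PLAU reached at most 2.83 CPM, in WT, and 1.44 CPM in any isoform library. PLAUR reached at most 1.27 CPM, in ΔDNMT3A.

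Per kilobase of exon the members spanned a wide range in WT, from 21.0 CPM for F2RL1, 13.1 for F10 and 8.27 for F3, through 2.5 for F2R and 0.896 for PLAU, to 0.300 for TFPI, 0.194 for F5, 0.135 for PLAUR and 0.0453 for PLAT. In ΔDNMT3A the order became F2RL1 at 39.7, F3 at 17.5, F10 at 5.52, F2R at 3.68 and TFPI at 3.29 CPM per kilobase. Tissue factor and factor X thus exchanged places.

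**Figure D3:**
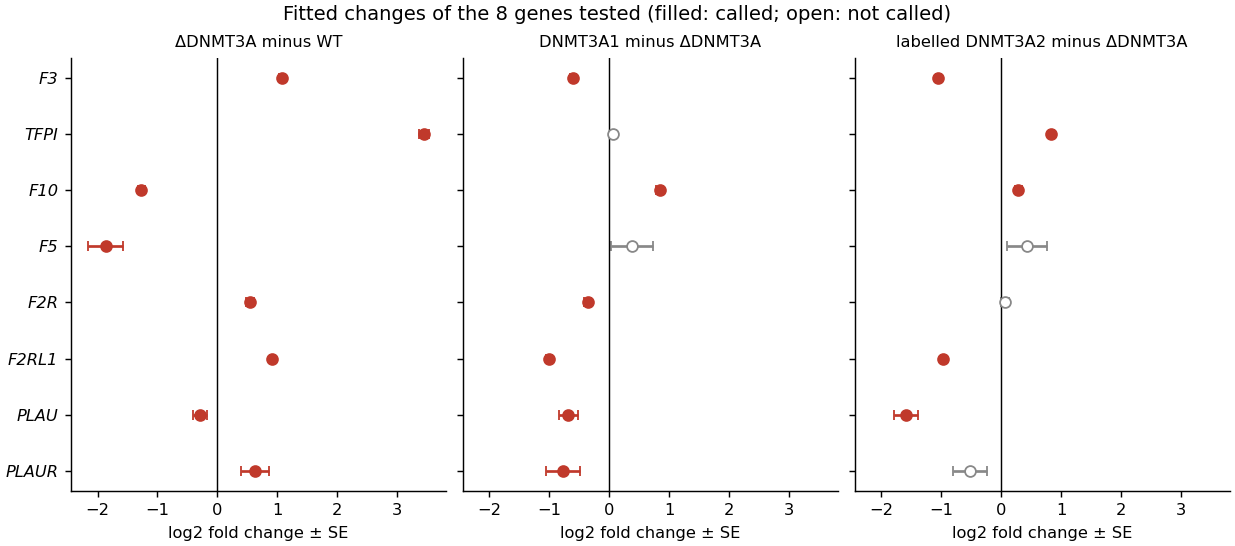
Fitted log2 fold change (points) with its standard error (bars) of the 8 tested genes in ΔDNMT3A against WT and in each isoform line against ΔDNMT3A, on 1 shared axis, with called changes filled and others open. F3 and F2RL1 lie right of 0 in the first panel and left of 0 in the other 2, F10 does the reverse, and TFPI lies at or right of 0 in all 3.

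Counted over the other comparisons, 6 of the 8 members tested were called in DNMT3A1 against ΔDNMT3A (1 higher, 5 lower), where 60.7% of all genes tested were called, and 5 in the libraries labelled DNMT3A2 against ΔDNMT3A (2 higher, 3 lower), where 67.9% were called. Against WT, 6 were called in DNMT3A1 (all genes: 65.3%) and 5 in the libraries labelled DNMT3A2 (all genes: 68.7%). Between DNMT3A1 and the libraries labelled DNMT3A2, 5 were called (all genes: 68.5%). The comparisons against ΔDNMT3A share its 4 libraries, as those against WT share theirs. Members called in both isoform lines against ΔDNMT3A in the direction opposite to their change in ΔDNMT3A were F3, F2RL1 and F10, 3 of 8, where 18.6% of the 16086 genes tested in all 3 comparisons met the same conditions.

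In ΔDNMT3A against WT the tested members other than PLAU lay outside the quartiles of the genes next to them along the chromosome. The members were picked with these changes known and their neighbours were not, so nothing follows from that difference. Over the 25 tested genes on each side of F3 the median change was 0.03 on the log2 scale (0.20 with 10 on each side), and 1 of these 50 had a larger value than F3. Around TFPI the median was 0.09 with 0 of 50 above TFPI, and around F2RL1 it was -0.03 with 3 of 50 above it. Around F10, near the end of chromosome 13 with 43 such genes, the median was -0.19 (-0.27 with 10 on each side) and 1 gene lay below F10. In DNMT3A1 against WT the median around F10 was -0.45, close to the -0.42 of F10 itself. In the libraries labelled DNMT3A2 against ΔDNMT3A the median around F2R was 0.12, close to the 0.06 of F2R itself, while F2RL1 in the same stretch was at -0.97 with 3 of 50 genes below it.

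Over all 17568 genes tested in any Caco-2 comparison, the levels most like that of F3 across the 15 libraries, by Pearson's r of log2(CPM + 1), were those of MTSS1 (r = 0.988), MYH4 (r = 0.986) and LPIN2 (r = 0.985). For F2RL1 they were IFNGR1 (r = 0.989), PCOLCE2 (r = 0.985) and CPN2 (r = 0.983), for TFPI they were PAQR5 (r = 0.993), DPPA3 (r = 0.993) and PNRC2 (r = 0.991), and for F10 they were BCAM (r = 0.989), CDK19 (r = 0.986) and MGAT5 (r = 0.985). The libraries fall into 4 lines, so that each r rests mostly on 4 line means. By Spearman's rho none of the 3 genes most like F3, F2RL1, TFPI or F10 was among the 3 highest.

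Among 18 other coagulation factors and cofactors, 14 were tested in ΔDNMT3A against WT, and 2 rose and 6 fell (median log2 fold change -0.04, all genes 0.00). Of all genes tested 31.2% rose and 31.0% fell. FGB, the fibrinogen beta chain, fell by 0.91 (SE 0.0521, adjusted p = 1.95e-13 from edgeR), from 76.1 ± 6.24 CPM (SD, n = 4) to 40.9 ± 3.25 CPM (SD, n = 4). MCFD2, a cargo receptor subunit for factors V and VIII, rose by 0.44 (SE 0.026, adjusted p = 4.2e-13 from edgeR). The fibrinogen gamma chain FGG separated the isoform lines: it had 543 ± 56.5 CPM in DNMT3A1 (SD, n = 3) and 54.7 ± 1.22 CPM (SD, n = 4) in the libraries labelled DNMT3A2, beside 210 ± 19.3 CPM (SD, n = 4) in ΔDNMT3A. FGG and FGA, the alpha chain, rose by 1.37 (SE 0.0607) and 1.28 (SE 0.0688) in DNMT3A1 against ΔDNMT3A and fell by 1.94 (SE 0.0478) and 1.90 (SE 0.057) in the libraries labelled DNMT3A2. In DNMT3A1 against ΔDNMT3A 9 of the 14 factors tested rose and 1 fell, where 30.4% of all genes tested rose and 30.3% fell. In the libraries labelled DNMT3A2 3 of 13 rose and 8 fell, where 33.8% of all genes rose and 34.1% fell.

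Of 11 coagulation inhibitors and protein C genes other than TFPI, 8 were tested in ΔDNMT3A against WT, and 4 rose and 3 fell (all genes: 31.2% and 31.0%). SERPINC1, antithrombin, rose from 2.78 ± 0.426 CPM (SD, n = 4) to 10.1 ± 0.861 CPM (SD, n = 4), by 1.83 on the log2 scale (SE 0.104, adjusted p = 7.15e-14 from edgeR). PROC, protein C, rose by 1.41 (SE 0.115, adjusted p = 7.24e-11 from edgeR), and SERPINA10, which inhibits factor X, fell by 0.59 (SE 0.0616, adjusted p = 1.17e-08 from edgeR). PROCR, the endothelial protein C receptor, fell by 1.14 (SE 0.0544) in DNMT3A1 and by 1.65 (SE 0.0615) in the libraries labelled DNMT3A2 against ΔDNMT3A. TFPI2, the close relative of TFPI, and THBD, thrombomodulin, did not pass the filter in Caco-2 cells.

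In the plasminogen system, 13 of 16 genes other than the members were tested, and in ΔDNMT3A against WT 8 rose and 5 fell (median 0.38). Of all genes tested 31.2% rose and 31.0% fell. SERPINF2, the plasmin inhibitor, fell by 1.32 (SE 0.0509) and THBS1, a matrix glycoprotein that inhibits plasmin, by 1.13 (SE 0.0299) in ΔDNMT3A against WT. VTN, vitronectin, an adhesive matrix protein that also binds the urokinase receptor, fell by 0.98 (SE 0.0341) in DNMT3A1 and by 2.46 (SE 0.0262) in the libraries labelled DNMT3A2 against ΔDNMT3A. SORL1, a sorting receptor of the LDL receptor family, rose by 1.89 (SE 0.0425) and 1.55 (SE 0.0346) in the same comparisons. PLG, plasminogen itself, was not tested.

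Downstream of the receptors, 7 of 9 other receptor, G protein and arrestin genes were tested, of which 1 rose and 3 fell in ΔDNMT3A against WT (all genes: 31.2% and 31.0%). ARRB1, an arrestin that binds activated receptors, rose by 0.86 (SE 0.0424, adjusted p = 1.13e-14 from edgeR), and the G protein subunits GNAI2 and GNA11 fell by 0.75 (SE 0.0387) and 0.17 (SE 0.0354). Neither GNAI2 nor ARRB1 returned to WT in the isoform lines. GNAI2 was lower by 0.93 (SE 0.0466) and 0.95 (SE 0.043) and ARRB1 higher by 0.70 (SE 0.0465) and 0.72 (SE 0.0388) in DNMT3A1 and in the libraries labelled DNMT3A2 against WT.

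Among epithelial serine proteases and their inhibitors, some of which can cleave PAR2, 14 of 16 were tested, and in ΔDNMT3A against WT 2 rose and 8 fell (all genes: 31.2% and 31.0%). KLK6, a trypsin-like kallikrein, fell by 1.28 (SE 0.0735, adjusted p = 1.68e-13 from edgeR), and TMPRSS4, a membrane serine protease, by 0.93 (SE 0.06, adjusted p = 1.89e-12 from edgeR). PRSS3, a trypsinogen, rose by 0.72 (SE 0.0494), although near-identical trypsinogen genes can share reads. In DNMT3A1 against ΔDNMT3A 11 of the 14 rose and 2 fell (all genes: 30.4% and 30.3%), with TMPRSS4 at 113 ± 3.09 CPM (SD, n = 3) against 15.6 ± 1.46 CPM (SD, n = 4), while in the libraries labelled DNMT3A2 7 rose and 7 fell (all genes: 33.8% and 34.1%).

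In mouse colonic epithelium tissue factor went the opposite way to the Caco-2 clone. F3 (ENSMUSG00000028128) had 47.2, 41, 57.1 and 33.3 CPM in the fl/fl mice and 24.4, 23.8, 22.1 and 22.9 CPM in the ΔIEC mice. All 4 ΔIEC mice lay below all 4 fl/fl mice and close together, whereas the fl/fl mice spread widely. F3 fell by 0.94 on the log2 scale (SE 0.146), a fold of 1.91, and was the 1 member called of 6 tested, where 0.691% of all 14626 genes tested were called, 0.602% higher and 0.0889% lower. Leaving out replicate 1 of fl/fl or replicate 2, 3 or 4 of ΔIEC ended the call, with edgeR adjusted p values of 0.0641 to 0.0729 and log2 fold changes of -0.95 to -0.91. The difference in direction between the 2 species was not tested, and clone, tissue and sequencing differ between them.

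Plaur, the urokinase receptor, had 52.8, 25.6, 48.2 and 31.1 CPM in fl/fl and 26.8, 23.1, 17.4 and 24.9 CPM in ΔIEC mice. The groups overlapped by 1 fl/fl mouse, and the log2 fold change of -0.77 (SE 0.224) was not called with edgeR, while DESeq2 called it. In both genes replicates 1 and 3 of fl/fl were the highest mice. The 8 immediate early and dissociation genes present summed to 4643 to 5457 CPM in fl/fl and 4943 to 6379 CPM in ΔIEC mice, with 0 of 8 called (median log2 fold change 0.07), and the myeloid markers to 16.7 to 21.5 and 16.6 to 21.0 CPM. T and B cell markers summed to 3.05 to 4.51 CPM in fl/fl and 5.69 to 7.23 CPM in ΔIEC mice. That difference was in Ptprc, the pan-leukocyte gene CD45, at 1.85 CPM in fl/fl and 4.08 CPM in ΔIEC mice. Its groups did not overlap, as those of 10.3% of all genes tested did not. Its log2 fold change of 1.13 (SE 0.229) was not called (adjusted p = 0.0642 from edgeR). Cd8a (0.514 and 0.472 CPM) and Ms4a1 (0.711 and 0.611 CPM), both at low levels, were not higher in ΔIEC mice. The 3 genes tested had a median log2 fold change of -0.17. The part of these cells in the result was not tested. In such bulk samples, fewer cells of a type and less RNA per cell cannot be told apart.

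**Figure D4:**
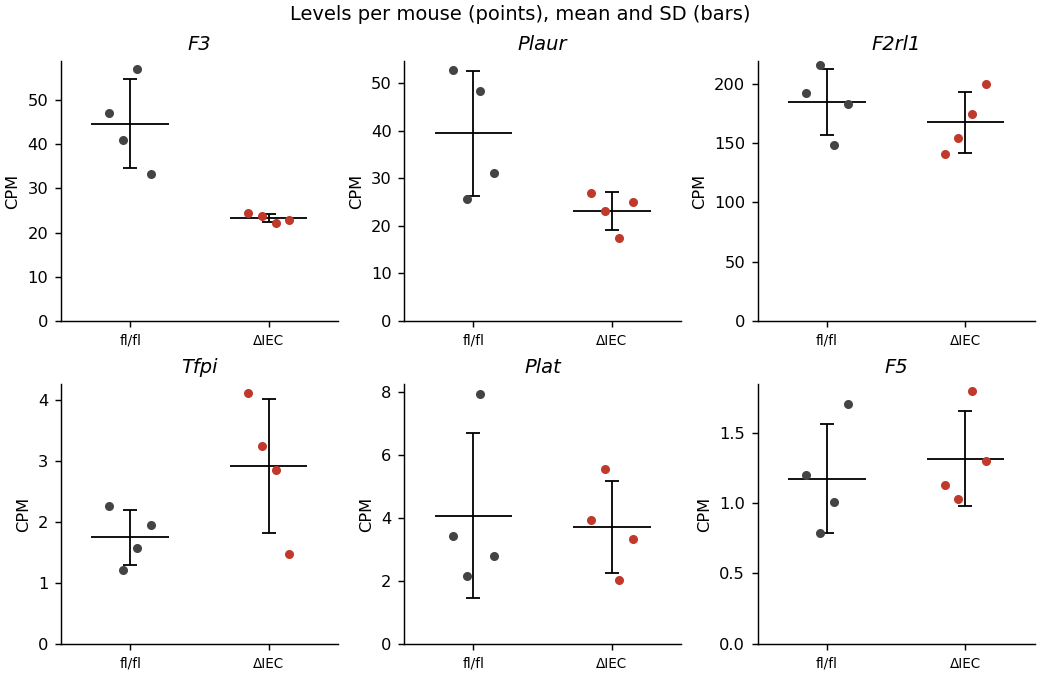
Level in CPM (vertical axes, each from 0) of the 6 tested genes in 4 Dnmt3a fl/fl and 4 Dnmt3a ΔIEC mice, with 1 point per mouse and the mean and SD as bars. F3 is the 1 gene of the 6 whose groups do not overlap, as 10.3% of all genes tested did not.

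F2rl1 was the most abundant member per length in mouse epithelium as in Caco-2 cells, with 67.2 ± 10.2 CPM per kilobase (SD, n = 4) in fl/fl and 60.9 ± 9.33 (SD, n = 4) in ΔIEC mice. Its groups overlapped, from 148 to 216 CPM against 141 to 200 CPM, and the difference of -0.14 (SE 0.139) was not called. Tfpi had 1.21 to 2.26 CPM in fl/fl and 1.48 to 4.11 CPM in ΔIEC mice, a log2 difference of 0.74 (SE 0.309) that was not called. The ratio of F3 to Tfpi per kilobase was 58.4 ± 20.4 (SD, n = 4) in fl/fl and 19.7 ± 9.31 (SD, n = 4) in ΔIEC mice, without overlap. No share over all genes was computed for such ratios. In ΔDNMT3A against WT cells the ratio was lower too, but there F3 and TFPI both rose. In mice F3 fell and the difference of Tfpi was not called. Markers of endothelium, the cells best known for TFPI and tissue-type plasminogen activator, summed to 8.85 to 12.9 CPM in fl/fl and 7.32 to 11.6 CPM in ΔIEC mice. Most of this was Pecam1, with means of 9.28 and 6.72 CPM, while Cdh5, Kdr and Erg had means of at most 0.0761 CPM. The same list summed to 18.3 to 26.9 CPM in the Caco-2 libraries, so the sum does not measure endothelial cells.

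Plat, at 2.15 to 7.93 CPM in fl/fl and 2.04 to 5.55 CPM in ΔIEC mice, and F5, at 0.788 to 1.70 and 1.03 to 1.79 CPM, were not called, with differences of -0.13 (SE 0.409) and 0.13 (SE 0.284). F2r, Plau and F10 had 0 to 6 counts per library and were not tested. Mouse epithelium thus held Plaur with hardly any Plau, and PAR2 with hardly any PAR1, whereas F2rl2 (PAR3), not detectable in Caco-2 cells, had 7.90 to 12.9 CPM in fl/fl and 5.53 to 11.4 CPM in ΔIEC mice. The mouse counts ignored strand, and the 1 gene overlapping exons of a member (Gm16548, on the other strand of F5) had 0 counts. A low F2R, PLAU or F10 count in mice and a low PLAUR or PLAT count in Caco-2 cells mark the members that can be read in 1 species alone.

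Around the mouse members, the 50 neighbouring tested genes had medians of -0.03 for F3, where 1 gene lay below it, and 0.03 for Plaur, where 0 lay below it. In the other lists of the pathway almost nothing was called in mice. The epithelial protease list had 1 of 8 tested genes called: Hpn, hepsin, a membrane serine protease, rose from 4.33 ± 0.83 CPM (SD, n = 4) to 10.5 ± 1.80 CPM (SD, n = 4), by 1.28 on the log2 scale (SE 0.181, adjusted p = 0.00942 from edgeR). With edgeR, 0 of 8 coagulation factors, 0 of 6 inhibitors, 0 of 12 plasminogen system genes and 0 of 8 receptor and G protein genes were called, with 2, 2, 1 and 1 of them at an unadjusted p under 0.05. DESeq2 called 0, 1, 0 and 0 of them, the 1 being Proc, protein C, named after its values were seen, with 2.00 CPM in fl/fl and 4.2 CPM in ΔIEC mice.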

How the data were processed

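Total RNA of Caco-2 lines (paired reads of 75 bases) and of EpCAM-purified mouse colonic epithelium (50 bases) was sequenced. Per the submitters' processing notes, the authors trimmed reads with Trim Galore 0.4.4 and aligned them with STAR 2.5.2b to GRCh38 or GRCm38. Per the file headers, the deposited values are raw counts of read pairs per gene, made with featureCounts 1.5.2 on the reverse strand (Caco-2) and 1.6.4 without strand (mouse), not normalized. Human identifiers were matched to symbols for 56948 of 58051. The members and gene lists were chosen with earlier results of these data known.

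Samples were grouped by their genotype labels. Replicate 3 of DNMT3A1 was not analysed here. Depth was 22104408 to 42161299 counts per Caco-2 library and 16943626 to 24921248 per mouse library. Between replicates, chi-square per degree of freedom was 1.91 to 5.60 (Caco-2) and 10.7 to 87.6 (mouse), where 1 would be counting noise. A floor of 3 counts covers counting error only, since reads carried no molecular identifiers. Each comparison was fitted on its 2 groups with edgeR 4.0.16 in R 4.3.3 (filterByExpr, TMM, quasi-likelihood test, Benjamini-Hochberg over all genes tested). Log2 fold changes are the first group minus the second. The fit was tested on simulated data. Named genes besides the members were, per list and comparison, the up to 3 called genes of largest change whose groups did not overlap and whose mean reached 1 CPM, of which the text gives a part and 1 gene is not reported here. Lists were written by hand and described by counts and medians. Alternatives were RLE and upper-quartile scaling, no filter, DESeq2 1.42.0, 1 fit over 4 lines, a replicate block, sequencing lane as a term, a change of at least 1 on the log2 scale, and leaving out each library. Promoter sequences are from RefSeq (GRCh38.p14). Tables and figures were made with Python 3.11.15, pandas 2.3.3 and matplotlib 3.10.9.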

Additional observations from a re-analysis of the deposited data

Results flagged for a closer look

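The 2 isoform lines were compared with each other in the fit of DNMT3A1 against the libraries labelled DNMT3A2, and 5 of the 8 members tested were called, where 68.5% of all genes tested were. The members were chosen with the levels of these lines known, so the values are a description and no test supports them. On the log2 scale DNMT3A1 was higher than the libraries labelled DNMT3A2 by 0.44 (SE 0.0532) for F3, by 0.90 (SE 0.251) for PLAU and by 0.55 (SE 0.057) for F10. The value was -0.78 (SE 0.043) for TFPI and -0.43 (SE 0.0709) for F2R. Each line is 1 clone, and DNMT3A itself was not above its ΔDNMT3A level in the libraries labelled DNMT3A2.

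Single libraries stood apart from the other 3 of their group in 3 of the 45 groups of 4 checked, by Dixon's test at the 95% level, which chance passes in about 1 of 20 groups. They were F10 in replicate 3 of ΔDNMT3A (14.3 CPM, the highest), F5 in the same library (0.135 CPM, the lowest, from 4 counts) and PLAT in replicate 3 of the libraries labelled DNMT3A2 (0.496 CPM, the highest, from 14 counts).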

How the results depend on the processing

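Each library left out in turn, RLE or upper-quartile scaling, sequencing lane as a term, no filter on low counts, DESeq2 and 1 fit over all 4 lines kept the direction of every called member. Of 414 member changes refitted under another setting, 382 kept their direction and side of the threshold, 31 lost a call and 1 gained it. Of 408 refits that left out 1 library, 379 kept both, 13 lost a call, 5 gained one and 11 changed sign.

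Requiring a log2 fold change of at least 1 left 1418, 1403, 1956, 2043, 1818 and 2187 genes, and 4, 1, 2, 2, 3 and 0 members, in ΔDNMT3A against WT, DNMT3A1 and the DNMT3A2 label against ΔDNMT3A, both against WT, and DNMT3A1 against the DNMT3A2 label, and 0 members in mice. In mice DESeq2 called 352 genes and 2 members (F3 and Plaur) where edgeR called 101 genes and 1 member. Leaving out 1 mouse gave 45 to 126 genes and 0 to 1 members, the fewest genes without replicate 3 of ΔIEC.

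Besides the lost calls of PLAU and PLAUR above, F2R in DNMT3A1 against WT was not called by DESeq2 (adjusted p = 0.110) or edgeR without replicate 4 of DNMT3A1 (adjusted p = 0.0765). Gained were PLAUR in the DNMT3A2 label against ΔDNMT3A without replicate 4 of that label (-0.90) and F2RL1 in DNMT3A1 against the DNMT3A2 label without replicate 4 of DNMT3A1 (-0.12). Changes of sign came with 1 library left out and in comparisons that were not called. PLAUR ranged from -0.41 to 0.032 in DNMT3A1 against WT, from -0.27 to 0.34 in the DNMT3A2 label against WT and from -0.51 to 0.12 between these isoform lines, where F5 ranged from -0.21 to 0.13 and F2RL1 from -0.12 to 0.014. In mice F5 ranged from -0.036 to 0.37 and Plat from -0.38 to 0.42.

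Replicate numbers were not used to pair the Caco-2 libraries, since deviations of same-numbered libraries correlated at -0.03 to 0.06. In ΔDNMT3A against WT, replicates 1, 2 and 4 correlated at 0.04, 0.06 and 0.03, each above its highest value with another number. With the replicate block, 7 members were called in ΔDNMT3A against WT (PLAU was lost, adjusted p = 0.0523 from edgeR), 6 members and 10043 genes in DNMT3A1 against ΔDNMT3A (10231 genes without the block), and 5, 6, 5 and 5 members in the other comparisons in the order above. The block changed no other call of a member. Replicate numbers in mice name separate animals. With 10 neighbours on each side, 36 of 54 neighbour medians moved by more than the spread between libraries, and by Spearman's rho all 7 sets of most similar genes changed. Depth limits PLAT, PLAUR and F5 in Caco-2 cells and F2r, Plau and F10 in mice.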
